A study of Mus musculus with 24 samples.

Results

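The comparison is between 2 mouse epithelial cell lines of the upper reproductive tract, C57epi.1 and Bm12.4, both kept in medium without supernatant. Its members are the arrays labelled media only of these lines, 4 of C57epi.1 and 4 of Bm12.4, which are 8 of the 24 arrays of the series. C57epi.1 came from C57BL/6 mice. Bm12.4 came from the strain B6(C)-H2-Ab1bm12/KhEgJ, which carries a mutant allele of H2-Ab1, the beta chain of an MHC class II molecule, on a C57BL/6 background. Both were grown as monolayers in RPMI medium with serum. The other arrays of the lines were given an inflammatory supernatant at 33% by volume, labelled with interferon-gamma at 4 ng/ml. A further 8 arrays held bone marrow macrophages. The line, its strain and its source animals cannot be told apart, since each strain gave 1 line. Whether the replicates of a line were grown apart is not in the labels, and the p-values hence rest on the spread between arrays, which may be technical.

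Epithelial cells of the oviduct and uterus line the tract, hold together through cadherins and keratin filaments, and sense infection through pattern recognition receptors and interferons. Cells kept in culture for long can take on genes of mesenchyme, such as fibrillar collagens and contractile proteins, while still carrying some keratins. Lines from 1 tissue can therefore differ in patterning genes, matrix, growth signals and innate immune tone.

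The labelled cell type was set against its markers, with the macrophage arrays measured by the same probe sets as a level to compare with. Epcam, the epithelial adhesion molecule, had a log2 level (mean ± SD over 4 arrays) of 3.74 ± 0.14 in C57epi.1 and 3.71 ± 0.09 in Bm12.4, against 3.71 ± 0.09 in macrophages. Cdh1, which encodes E-cadherin, was at 4.34 ± 0.13 and 4.50 ± 0.24, below the 6.65 ± 0.89 of macrophages. Krt18 was at 5.09 ± 0.14 and 4.72 ± 0.08, against 5.01 ± 0.21 in macrophages. So 3 of the 5 defining epithelial markers were not above the macrophage level in either line. Krt19, a keratin of simple epithelia, was high in both lines, at 11.31 ± 0.42 and 11.77 ± 0.40 against 4.32 ± 0.32 in macrophages. Krt8 was at 9.25 ± 0.40 in C57epi.1 and at 5.67 ± 0.21 in Bm12.4, with 5.38 ± 0.41 in macrophages. The fibroblast genes Col1a1 (12.49 ± 0.11 and 12.98 ± 0.14) and Col3a1 (11.54 ± 0.43 and 12.37 ± 0.38) were high in both lines. Not all such genes were, since the lowest line mean among 14 fibroblast markers was 2.88. Of the 14, 3 were called higher in C57epi.1 and 4 in Bm12.4, beside 12% and 12.5% of all genes. Col1a2, the partner chain of Col1a1, was far lower in Bm12.4 than in C57epi.1 (given below). The mesothelial marker Upk3b was at 11.24 ± 0.21 and 12.12 ± 0.16, against 5.38 ± 0.24 in macrophages. Markers of leukocytes were near the floor of the arrays. Ptprc, the leukocyte antigen CD45, was at 3.97 ± 0.15 and 4.18 ± 0.28 against 11.25 ± 0.03 in macrophages, and Csf1r at 4.49 ± 0.14 and 4.68 ± 0.04 against 12.12 ± 0.11. Both lines thus carried Krt19 beside some mesenchymal and mesothelial genes and lacked a rise of Epcam and Cdh1 over macrophages.

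Of 19938 genes, limma called 4873 (24.4%) different between the lines in media at an adjusted p under 0.05. Of these, 2383 (12% of all genes) were higher in C57epi.1 and 2490 (12.5%) were higher in Bm12.4. The median difference over all genes, taken throughout as C57epi.1 minus Bm12.4 on the log2 scale, was −0.01. At least 2-fold differences were called for 1503 genes (7.54%), 660 higher in C57epi.1 and 843 higher in Bm12.4. At least 16-fold differences numbered 39 and 71, and at least 64-fold differences 7 and 10. In 100 of the 110 genes of at least 16-fold, the mean of the lower line lay under 5.48, the median of all values, so these differences were mostly between a clear level in 1 line and a low signal in the other. Between array medians the range was 5.0 to 5.19. Arrays correlated across genes at 0.9760 to 0.9966 within C57epi.1, at 0.9670 to 0.9963 within Bm12.4 and at 0.9203 to 0.9592 between the lines.

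Replicates 1 and 2 of each line stood apart from replicates 3 and 4, so each difference was also taken within each pair of replicates. The labels do not say what the pairs share. Within replicates 1-2, limma called 4174 genes (20.9%), and within replicates 3-4 it called 6182 (31.0%). Of the genes called in media, 3135 were called the same way within both pairs, which is 15.7% of all genes and 64.3% of the calls. Among calls of at least 2-fold the share was 94.4%, and all 110 genes of at least 16-fold were among them. A further 196 genes were called over the 4 replicates but in neither pair. The size of the difference changed between the pairs for 949 genes (4.76%), with C57epi.1 relatively higher in replicates 3-4 for 491 of them and relatively lower for 458.

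The 12 largest differences towards C57epi.1 lay between 5.30 and 7.12. Myh10, a nonmuscle myosin heavy chain, read 11.40, 11.60, 12.15 and 12.10 in replicates 1 to 4 of C57epi.1 and 4.84, 4.75, 4.46 and 4.74 in Bm12.4. Every C57epi.1 array lay far above every Bm12.4 array, and the difference of 7.12 (SE 0.151, adjusted p = 5.59e-20) is 139-fold. Col1a2, a chain of type I collagen, read 12.28, 12.20, 12.63 and 12.61 against 5.98, 5.94, 6.00 and 6.11, a difference of 6.42 (SE 0.136, adjusted p = 5.59e-20). Its partner chain Col1a1 was slightly higher in Bm12.4 (−0.49, adjusted p = 0.000745) and high in both lines. Lox, the enzyme that crosslinks collagen and elastin, read 10.29, 10.08, 10.98 and 11.07 in C57epi.1 and 4.19, 4.57, 3.90 and 4.42 in Bm12.4. Fgf7, a fibroblast growth factor that acts on epithelia, read 10.41, 10.38, 10.40 and 10.14 against 3.66, 4.18, 4.54 and 4.09. The pantetheinase Vnn1 differed by 7.02, and the glutathione transferase Gsta4 by 5.46. Lncenc1, a noncoding RNA known from embryonic stem cells, read 11.61, 11.43, 11.46 and 11.59 against 6.04, 6.32, 5.97 and 5.68. Dppa2, a chromatin factor of early embryos, read 8.62, 8.82, 9.21 and 9.16 against 3.23, 3.49, 3.42 and 3.62. The rest of the 12 largest were Niban1 (6.06), Nxf3 (5.75), Armcx3 (5.32) and P3h2 (5.30), a prolyl hydroxylase of collagen. A call the same way within both pairs of replicates, without overlap of arrays, was a condition for these 12. Each was also called the same way in supernatant. Pluripotency genes were looked up after Dppa2 was seen. Nanog was higher in C57epi.1 by 0.55 (adjusted p = 0.00875), while Pou5f1 (0.09) and Sox2 (−0.01) were not called.

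The 12 largest differences towards Bm12.4 lay between −7.62 and −5.91. Pkhd1l1, a membrane protein related to fibrocystin, read 11.45, 10.92, 11.88 and 12.18 in Bm12.4 and 3.98, 3.76, 4.04 and 4.15 in C57epi.1, a difference of −7.62 (SE 0.168, adjusted p = 8.94e-20) or 197-fold. Car13, a carbonic anhydrase, read 11.31, 11.36, 10.92 and 10.84 against 3.88, 3.95, 3.95 and 4.24. It was the 1 member called among 16 carbonic anhydrases. Angpt1, the ligand of the receptor Tie2, read 10.59, 10.16, 10.73 and 10.66 against 3.39, 3.29, 3.68 and 3.68. No array of C57epi.1 came near a Bm12.4 array for these genes. Gdf10, a secreted protein of the TGF-beta family, read 10.85, 10.99, 11.26 and 11.27 against 4.64, 4.80, 4.93 and 5.15. Vldlr, a lipoprotein receptor, read 10.08, 9.86, 10.68 and 10.64 against 4.34, 4.52, 4.37 and 3.99. Prg4, the lubricating glycoprotein lubricin, read 12.13, 11.99, 12.70 and 12.76 against 5.04, 4.33, 7.97 and 8.27, so its level in C57epi.1 was higher in replicates 3 and 4. The others were Tmem45a (−7.32), Capn6 (−6.92), Aox3 (−6.33), Nkain4 (−6.03), the GABA receptor subunit Gabra3 (−6.02) and Akr1c18 (−5.91), the reductase that inactivates progesterone. These 12 were also picked only from genes without overlap of arrays and called the same way within both pairs. Each was called the same way in supernatant.

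**Figure D1:**
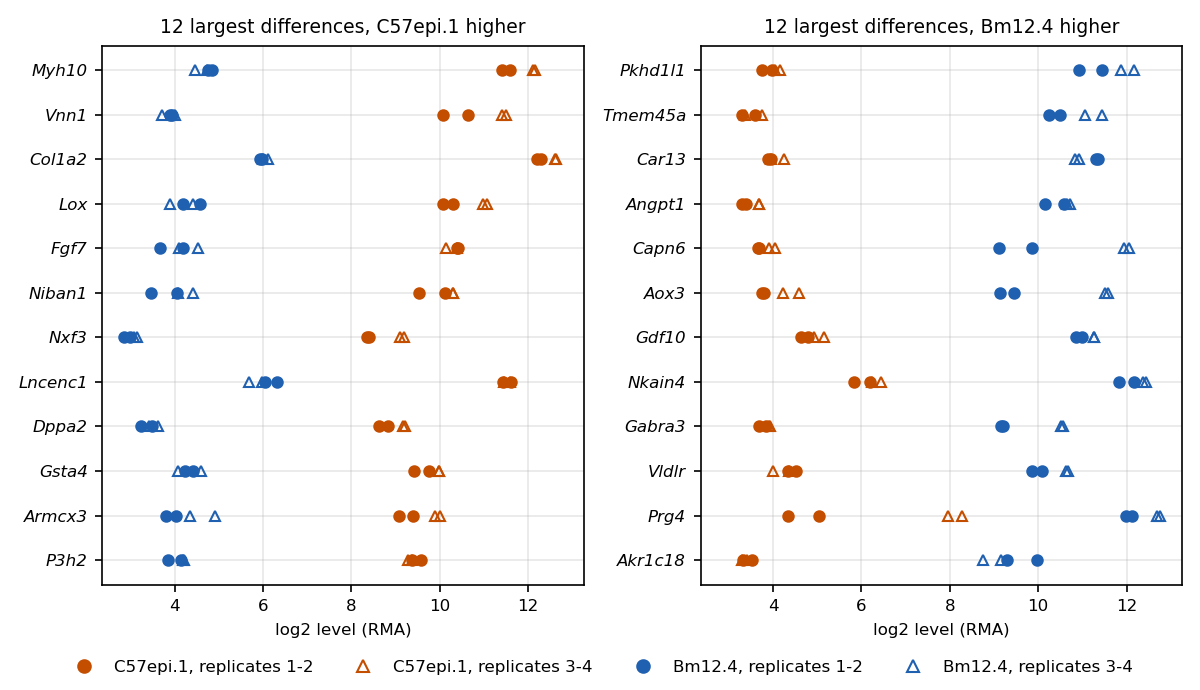
The log2 level of each array is on the x axis and the 12 genes with the largest called difference each way are on the y axis, with circles for replicates 1-2 and open triangles for replicates 3-4. Genes were picked only where the 4 arrays of 1 line lie apart from the 4 of the other. Prg4 in C57epi.1 spans 4.33 to 8.27 between its replicates.

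Of 44 collagen genes, 7 were higher in C57epi.1 and 6 in Bm12.4, beside shares of 12% and 12.5% over all genes. These shares are the background for the media counts of each list below. Col11a1 (2.95) and Col4a2 (2.74), chains of a fibrillar and of the basement membrane collagen, were higher in C57epi.1. Col8a1, a short-chain collagen, read 8.46, 8.55, 9.07 and 9.33 in Bm12.4 and 4.27, 4.41, 4.57 and 4.84 in C57epi.1 (difference −4.33, SE 0.162, adjusted p = 1.42e-15). The enzymes that hydroxylate, trim and crosslink collagen were more often higher in C57epi.1, with 10 of 26 higher there and 4 in Bm12.4. Lox, P3h2, P4ha3 (2.94) and Loxl1 (1.72) led them. Of 44 matrix glycoproteins, 11 were higher in C57epi.1 and 10 in Bm12.4, and with the 8 media arrays alone 11 and 4 were. Tnc, the tenascin of remodelling matrix, read 9.22, 9.44, 10.80 and 10.83 in C57epi.1 and 6.52, 6.48, 5.89 and 6.62 in Bm12.4. Fbln1 (−5.88), Nid2 (−4.66) and the elastic fibre protein Eln (−3.70) were higher in Bm12.4. So were the small proteoglycans Prelp (−3.96) and Dcn (−1.88), while the glypicans Gpc1 (1.68) and Gpc6 (1.46) were higher in C57epi.1. Of 31 laminins and integrins, 8 were higher in C57epi.1, with Lama5 (3.29), Itgb8 (2.75) and Itga3 (2.65) the largest. Lama4 (−2.61) was the largest of the 5 higher in Bm12.4. Each of these lists of structural proteins thus had members called on both sides.

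Matrix-cutting genes leaned to Bm12.4. Of 40 metalloproteinases, inhibitors and plasminogen system genes, 14 were higher in Bm12.4 and 7 in C57epi.1. Without replicate 3 or 4 of C57epi.1, or replicate 1 of Bm12.4, the latter count was 4. Plau, the urokinase that activates plasminogen, read 8.82, 8.98, 9.79 and 9.49 in Bm12.4 and 5.08, 5.50, 6.02 and 6.22 in C57epi.1. The difference was −3.56 (SE 0.216, adjusted p = 8.18e-12), and the groups did not overlap. The tissue activator Plat differed by −3.09, and the metalloproteinases Adam12 and Adamts12 by −4.49 and −4.30.

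Contractile genes leaned to C57epi.1. Of 26 actin, myosin and contractile genes, 10 were higher in C57epi.1 and 1 in Bm12.4. Acta2, smooth muscle actin, read 9.50, 9.28, 9.65 and 9.97 in C57epi.1 and 4.92, 5.34, 5.70 and 5.51 in Bm12.4. The difference was 4.23 (SE 0.195, adjusted p = 5.95e-14), and the lowest C57epi.1 array was far above the highest Bm12.4 array. Tpm2, a tropomyosin, differed by 3.43 and the calponin Cnn2 by 1.31. The mean over the 26 genes was between 7.17 and 7.39 in the C57epi.1 arrays and between 6.45 and 6.65 in those of Bm12.4. Of 10 smooth muscle markers, 3 were higher in C57epi.1 and none in Bm12.4.

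Among genes of cell shape, 6 of 17 keratins were higher in C57epi.1 and 1 in Bm12.4. Krt8 read 9.70, 8.75, 9.16 and 9.38 in C57epi.1 and 5.45, 5.95, 5.62 and 5.67 in Bm12.4 (difference 3.58, SE 0.176, adjusted p = 1.92e-13). Krt14, a keratin of basal cells, read 11.33, 11.07, 10.95 and 11.13 against 8.80, 8.82, 6.90 and 7.26, and in Bm12.4 it was lower in replicates 3 and 4. Krt13 (−0.98) was the exception. Krt19 was not called (difference −0.45, adjusted p = 0.272), and Krt18 was not either (0.37, adjusted p = 0.0808). Cdh3, which encodes P-cadherin, read 9.58, 9.30, 8.81 and 9.10 in C57epi.1 and 4.59, 4.53, 4.55 and 4.26 in Bm12.4, which is 26.3-fold (difference 4.71, adjusted p = 1.77e-17). In Bm12.4 it was at the level of macrophages, 4.43 ± 0.10. Of 38 epithelial adhesion and junction genes, 4 were higher in C57epi.1 and 2 in Bm12.4, near the background. The desmosome genes Perp (3.10) and Pkp2 (2.18) were higher in C57epi.1 and the junction molecule F11r (−1.75) in Bm12.4. Epcam and Cdh1 differed by 0.04 and −0.15 (adjusted p = 0.878 and 0.808).

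The mesenchymal factors Snai1 (2.91), S100a4 (1.66) and Prrx1 (1.05) and the intermediate filament gene Vim (0.99) were higher in C57epi.1, and all were called within both pairs of replicates. Of 13 such genes, 5 were higher in C57epi.1 and 3 in Bm12.4. The calls held within both pairs of replicates for 5 and 1 of them. With the 8 media arrays alone 5 and 1 were called, and with the replicate block on those arrays 6 and 3. The list's median difference was 0.18 in media and 0.05 in supernatant. C57epi.1 was thus higher both for Snai1, S100a4, Prrx1 and Vim and for Krt8, Krt14 and Cdh3. Of 14 mesothelial markers, 7 were higher in Bm12.4 and 1 in C57epi.1. Lrrn4 read 11.30, 11.18, 11.73 and 11.69 in Bm12.4 and 6.51, 5.71, 8.79 and 8.68 in C57epi.1, where replicates 3 and 4 were higher. Nkain4 (−6.03), Ildr2 (−1.78) and the basonuclin Bnc1 (−1.74) went the same way. Gpm6a went the other way (2.70), and Msln (0.34, adjusted p = 0.164) was not called.

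Of 37 Hox genes, which set position along the body and the tract, 13 were higher in C57epi.1 and 6 in Bm12.4. Hoxc10 read 6.84, 6.42, 7.09 and 7.12 in C57epi.1 and 4.15, 4.06, 4.05 and 4.19 in Bm12.4 (difference 2.75, SE 0.106, adjusted p = 2.23e-15). In the Hoxc cluster, Hoxc4 (0.73), Hoxc5 (0.95), Hoxc6 (1.54), Hoxc8 (0.59), Hoxc9 (1.76), Hoxc11 (1.39) and Hoxc13 (2.71) went the same way, while Hoxc12 (−0.09) was not called. This cluster was looked at gene by gene after its values were seen. Hoxa11, a gene of the uterine segment, differed by 2.99, whereas Hoxa4, Hoxa5, Hoxa6 and Hoxa7 were higher in Bm12.4 (differences −0.44, −0.67, −0.36 and −0.42). Hoxa7 lost its call without replicate 2 (adjusted p = 0.0618) or 3 (0.0806) of Bm12.4. Of 29 tract patterning genes and hormone receptors, 11 were higher in Bm12.4 and 1 in C57epi.1. Without replicate 4 of Bm12.4 the count of 11 fell to 7, and with the 8 media arrays alone it fell to 6. Osr1 (−3.89) and Tbx18 (−3.64), transcription factors of the intermediate mesoderm and of stroma, led those of Bm12.4, and Foxa2 (2.56), a factor of uterine glands, was the 1 of C57epi.1. Esr1, the oestrogen receptor, read 5.76, 5.75, 7.69 and 7.53 in Bm12.4 and 4.71, 5.00, 4.90 and 5.02 in C57epi.1. The difference was larger in replicates 3-4 (−2.65) than in replicates 1-2 (−0.90). Pgr, the progesterone receptor, was at 3.76 and 3.81, with no call. Of 167 further patterning factors, 24 were higher in C57epi.1 and 18 in Bm12.4, with Sox12 (2.64) and Lhx9 (−3.35) among the largest. The share called, 25.1%, was near the 24.4% over all genes.

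Of 21 genes of retinoid metabolism and its receptors, 7 were higher in Bm12.4, 1 in C57epi.1 and 13 were not called. Aldh1a1, a retinaldehyde dehydrogenase, read 11.53, 11.68, 10.90 and 10.79 in Bm12.4 and 6.84, 6.07, 6.69 and 6.60 in C57epi.1. Its difference was −4.67 (SE 0.187, adjusted p = 4.77e-15), and those of Aldh1a7, Aldh1a2 and the receptor Rxrg were −4.36, −3.65 and −2.15. Aldh1a1 and Aldh1a7 are near-identical neighbours, and their probe sets may share signal.

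Growth signals differed in both directions. Of 39 ligands of receptor tyrosine kinases, 8 were higher in C57epi.1 and 7 in Bm12.4. Beside Fgf7 and Angpt1, Vegfd, a growth factor of lymphatic vessels, read 10.44, 9.88, 10.61 and 10.83 in Bm12.4 and 5.84, 5.24, 5.58 and 5.52 in C57epi.1. Pros1, protein S, differed by −4.37. Of 36 receptors, 9 were higher in C57epi.1 and 7 in Bm12.4. Fgfr1 read 8.80, 8.68, 9.24 and 9.43 in Bm12.4 and 5.04, 5.50, 5.12 and 5.30 in C57epi.1, a difference of −3.80 (SE 0.146, adjusted p = 2.29e-15). Fgfr2, the receptor that in its epithelial form binds Fgf7, went the other way (1.87), as did Flt1 (2.18) and Met (1.67). The lines therefore differed in opposite directions for both receptors, with no overlap of arrays. Of 10 insulin-like growth factor binding proteins, 4 were higher in Bm12.4 and 2 in C57epi.1. Igfbp5 read 11.41, 10.84, 10.83 and 10.69 in Bm12.4 and 4.70, 4.67, 5.90 and 5.14 in C57epi.1. Igfbp3 (−4.84) and Igfbp6 (−2.27) went with it, and Igfbp7 (3.77) went against it.

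Of 43 genes of the TGF-beta, BMP and activin family, 16 were higher in C57epi.1 and 9 in Bm12.4, yet the largest differences were towards Bm12.4. These were the ligands Gdf10 (−6.21) and Gdf6 (−3.79), and the coreceptors Eng (−4.38) and Tgfbr3 (−2.96). Eng read 9.69, 9.73, 9.93 and 9.93 in Bm12.4 and 4.97, 4.95, 5.75 and 6.08 in C57epi.1. Among 27 Notch and Hedgehog genes, 8 were higher in C57epi.1 and 4 in Bm12.4. The receptors Notch1 (−2.58) and Notch3 (−2.24) were higher in Bm12.4. The ligand Jag1 (2.10) and the target Hes1 (2.38) were higher in C57epi.1. These genes were named for the size of their differences, and the list's other called members are not named. Of 57 Wnt genes, 9 were higher in Bm12.4 and 5 in C57epi.1, and the share called, 24.6%, was near the 24.4% over all genes. Wnt5a, a noncanonical ligand, read 8.45, 8.79, 8.96 and 8.99 in Bm12.4 and 5.27, 4.76, 5.71 and 5.33 in C57epi.1 (difference −3.53, adjusted p = 5.52e-14). The receptors Fzd1 (−2.17) and Fzd4 (−1.58) went with it, and Wnt11 (1.75) did not. Guidance genes were even, with 11 of 46 semaphorins, plexins, slits and netrins higher in C57epi.1 and 10 in Bm12.4. Sema3d (4.96) and Plxna4 (−2.78) were the largest each way. Ephrins were likewise even, with 3 of 21 each way, led by Efna5 (2.56) and Efnb1 (−1.15). Of 37 cadherins and protocadherins, 5 were higher in C57epi.1 (3 without replicate 1 or 2 of Bm12.4) and 2 in Bm12.4, Fat4 and Pcdh7 (both −2.92).

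Interferon-stimulated genes, which encode antiviral and antibacterial effectors and are switched on by type I interferon through the factor complex ISGF3, were the list most often higher in Bm12.4. Of 47 measured, 37 were higher in Bm12.4 and 2, Isg20 (1.30) and Ifitm1 (1.41), in C57epi.1. Ifitm1 lost its call without replicate 1 (adjusted p = 0.0597) or 2 (0.0694) of Bm12.4, or replicate 3 (0.145) or 4 (0.14) of C57epi.1. The median difference was −1.15, beside −0.01 over all genes. The call rested in part on replicates 3 and 4 of Bm12.4. Without either of them 23 were higher in Bm12.4, and with the 8 media arrays alone 15 were. With the replicate number as a block 38 were, and with that block on the 8 media arrays alone 37. With replicates 1-2 alone 29 were called higher in Bm12.4 (median −0.60) and with replicates 3-4 alone 39 (median −1.66). Over all genes, 20.9% and 31% were called within these pairs in either direction. For 30 of the 47 the difference changed between the pairs, beside 4.76% of all genes.

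Ifit1, a protein that binds foreign RNA, read 7.50, 6.33, 9.51 and 9.92 in Bm12.4 and 4.85, 4.03, 5.10 and 5.50 in C57epi.1. Every Bm12.4 array was higher, and replicates 3 and 4 were the highest (difference −3.44, SE 0.49, adjusted p = 8.46e-06). Parp12, an ADP-ribosyltransferase, had the largest difference of the list. It read 7.73, 7.75, 8.95 and 9.05 in Bm12.4 and 3.94, 4.11, 4.02 and 4.21 in C57epi.1 (−4.30, SE 0.21, adjusted p = 1.8e-13, 19.7-fold). Ifih1, the RNA sensor MDA5, read 6.88, 6.85, 8.77 and 8.87 against 4.12, 4.37, 4.08 and 4.21. Phf11d differed by −3.62. Irf7, the factor that amplifies interferon production, read 6.69, 6.22, 9.95 and 10.30 in Bm12.4 and 5.44, 4.76, 6.93 and 7.02 in C57epi.1. These arrays overlapped, and the adjusted p of 0.0133 became 0.0699 without replicate 3 of Bm12.4, 0.0732 without replicate 4 of Bm12.4 and 0.0569 without replicate 2 of C57epi.1. The mean of the 47 genes was 5.72, 5.59, 6.22 and 6.27 in C57epi.1 and 6.58, 6.40, 8.01 and 8.15 in Bm12.4, so the lowest Bm12.4 array was above the highest C57epi.1 array. In both lines replicates 3 and 4 were above replicates 1 and 2.

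To show an element known from such genes, promoters were read from RefSeq on GRCm38.p6 for 27 of the 37 genes higher in Bm12.4. The letters GAAA, then any 2 bases, then GAAA, an interferon response element, were searched on both strands from 250 bases before to 50 after the start. They were in 10 of the 27 (37%) and not in the other promoters of this set. Over all interferon-stimulated genes measured they were in 12 of 34 (35.3%), and over all genes tested in 519 of 15614 promoters (3.32%). The 130 bases before the start are printed for 4 genes with the letters, and for Parp12, whose difference was the largest and which has none of them in the bases printed. Each runs 5′ to 3′ on the strand of the gene, with capitals for the letters on either strand.
Ifit1, chr19:34640759-34640888, plus strand: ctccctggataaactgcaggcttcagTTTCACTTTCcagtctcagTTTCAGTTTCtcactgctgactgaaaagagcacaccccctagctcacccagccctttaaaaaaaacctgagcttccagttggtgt
Rsad2, chr12:26456453-26456582, minus strand: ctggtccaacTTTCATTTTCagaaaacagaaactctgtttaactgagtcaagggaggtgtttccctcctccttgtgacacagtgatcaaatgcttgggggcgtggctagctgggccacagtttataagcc
Bst2, chr8:71537473-71537602, minus strand: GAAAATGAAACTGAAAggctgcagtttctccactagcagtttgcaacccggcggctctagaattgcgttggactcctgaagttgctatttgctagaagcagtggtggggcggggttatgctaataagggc
Oas3, chr5:120777660-120777789, minus strand: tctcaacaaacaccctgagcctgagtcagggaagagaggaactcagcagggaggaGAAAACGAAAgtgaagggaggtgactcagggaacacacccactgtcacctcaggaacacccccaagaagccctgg
Parp12, chr6:39118350-39118479, minus strand: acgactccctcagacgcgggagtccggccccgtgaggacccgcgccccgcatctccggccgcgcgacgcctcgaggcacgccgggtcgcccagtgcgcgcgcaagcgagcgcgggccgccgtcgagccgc

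Ifit1 holds the letters at 2 places, −104 and −85 from the start. Bst2, a tether of budding virus, holds them at −130 and −124, where the runs overlap. Rsad2, the antiviral enzyme viperin, holds them at −120, and Oas3, a synthetase that senses double-stranded RNA, at −75. Levels of Rsad2 differed by −1.52, of Bst2 by −2.09 and of Oas3 by −1.33, all called. A run of letters is a description of the promoter and does not show that a factor binds there.

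Other genes of interferon signalling moved less evenly. Of 8 interferon-inducible GTPases, which attack vacuoles of intracellular bacteria, 4 were higher in Bm12.4. A further 7 on this list were not analysed. The count of 4 was 6 without replicate 1 or 2 of Bm12.4 and 3 without replicate 3. With the 8 media arrays alone it was 1, and with the replicate block on those arrays 4. Gbp3 read 5.17, 4.61, 8.30 and 8.25 in Bm12.4 and 3.86, 3.93, 4.51 and 4.31 in C57epi.1, so the lines were furthest apart in replicates 3 and 4. The difference of Gbp7 was −1.05 in replicates 1-2 and −3.76 in replicates 3-4. These families share sequence, and signal may pass between members. Of 25 interferon receptors, Jak, Stat and interferon genes, 7 were higher in Bm12.4. That count was 4 without replicate 3 or 4 of that line, and 4 with the 8 media arrays alone. Jak2 (−1.40) was higher in Bm12.4 and Jak1 (1.07) in C57epi.1, each without overlap of arrays. Of 21 MHC class I and peptide loading genes, 6 were higher in Bm12.4 and none in C57epi.1. The count of 6 was 4 without replicate 3 or 4 of Bm12.4, and 3 with the 8 media arrays alone. Within replicates 1-2, 2 were called each way, and within replicates 3-4, 9 were higher in Bm12.4 and none in C57epi.1. Over all genes, 20.9% and 31% were called within these pairs in either direction. Tap1, the peptide transporter, read 7.18, 7.50, 8.08 and 8.22 in Bm12.4 and 4.17, 4.58, 4.15 and 4.53 in C57epi.1 (difference −3.39, SE 0.2, adjusted p = 5.67e-12). In media, class II genes were low. H2-Ab1, the gene mutated in the strain of Bm12.4, read 4.79, 4.51, 4.61 and 4.51 in C57epi.1 and 4.02, 4.25, 4.23 and 4.19 in Bm12.4, with a difference of 0.43 (SE 0.353, adjusted p = 0.466). Macrophages were at 12.64. With the 8 media arrays alone its adjusted p was 0.0191, and whether the mutant bases lie under a probe was not tested. H2-Aa (0.09) and Ciita (−0.20), the master regulator of the class, were not called, and Cd74 (−1.60, adjusted p = 0.00179) was higher in Bm12.4. Of 14 class II genes, 1 was called each way. With the 8 media arrays alone 2 were higher in C57epi.1 and none in Bm12.4, and with the replicate block on those arrays 3 and 1.

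Of 31 pattern recognition genes, 11 were higher in Bm12.4 and 4 in C57epi.1, or 2 without replicate 3 or 4 of that line. Aim2, a sensor of cytosolic DNA, read 8.13, 8.06, 8.39 and 8.06 in C57epi.1 and 3.80, 3.73, 3.43 and 3.74 in Bm12.4 (difference 4.49, SE 0.106, adjusted p = 2.95e-19). Casp1, the protease that inflammasomes such as that of Aim2 activate, read 7.01, 7.26, 8.10 and 8.09 in Bm12.4 and 3.06, 3.36, 3.39 and 3.69 in C57epi.1 (−4.24, adjusted p = 6.17e-14). In media the line with the sensor was low for the protease, and the line with the protease was low for the sensor. Of 36 chemokines, 7 were higher in Bm12.4 and 3 in C57epi.1. Cxcl5, a neutrophil attractant, read 10.99, 11.17, 12.32 and 12.05 in Bm12.4 and 7.85, 7.30, 9.69 and 9.69 in C57epi.1. Cxcl15, another of this class, read 5.66, 5.09, 9.62 and 9.95 in C57epi.1 and 2.91, 2.93, 3.56 and 3.42 in Bm12.4, so its difference grew from 2.46 to 6.29 between the pairs. Of 56 cytokines and receptors, 13 were higher in Bm12.4 and 3 in C57epi.1, and with the 8 media arrays alone 7 and 2 were. Il13ra1, a receptor chain for IL-13, read 9.15, 9.12, 9.60 and 9.34 in Bm12.4 and 3.70, 3.46, 3.39 and 3.73 in C57epi.1 (−5.73, adjusted p = 8.65e-20). The growth hormone receptor Ghr (−4.45) and Il13ra2 (−2.51) went with it. Of 32 acute phase and complement genes, 12 were higher in Bm12.4 and 2 in C57epi.1, and with the 8 media arrays alone 6 and 1 were. Saa3, a serum amyloid, read 9.63, 9.85, 12.10 and 11.56 in Bm12.4 and 4.99, 4.10, 6.51 and 6.07 in C57epi.1. The endotoxin binder Lbp (−3.66), Cp (−3.23) and Colec12 (−3.80) went the same way. Among genes that T cells read, Cd24a (−5.37) was higher in Bm12.4, and Cd44 (2.10) and Icam1 (0.96) in C57epi.1. Of 20 prostaglandin genes, 5 were higher in Bm12.4 and 3 in C57epi.1. Ptgs2, the inducible cyclooxygenase, read 9.39, 8.79, 9.01 and 8.70 in C57epi.1 and 6.82, 6.50, 7.35 and 6.03 in Bm12.4, and the prostacyclin synthase Ptgis (3.34) went with it. The degrading enzyme Hpgd (−5.79) and the transporter Slco2a1 (−3.58) were higher in Bm12.4.

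**Figure D2:**
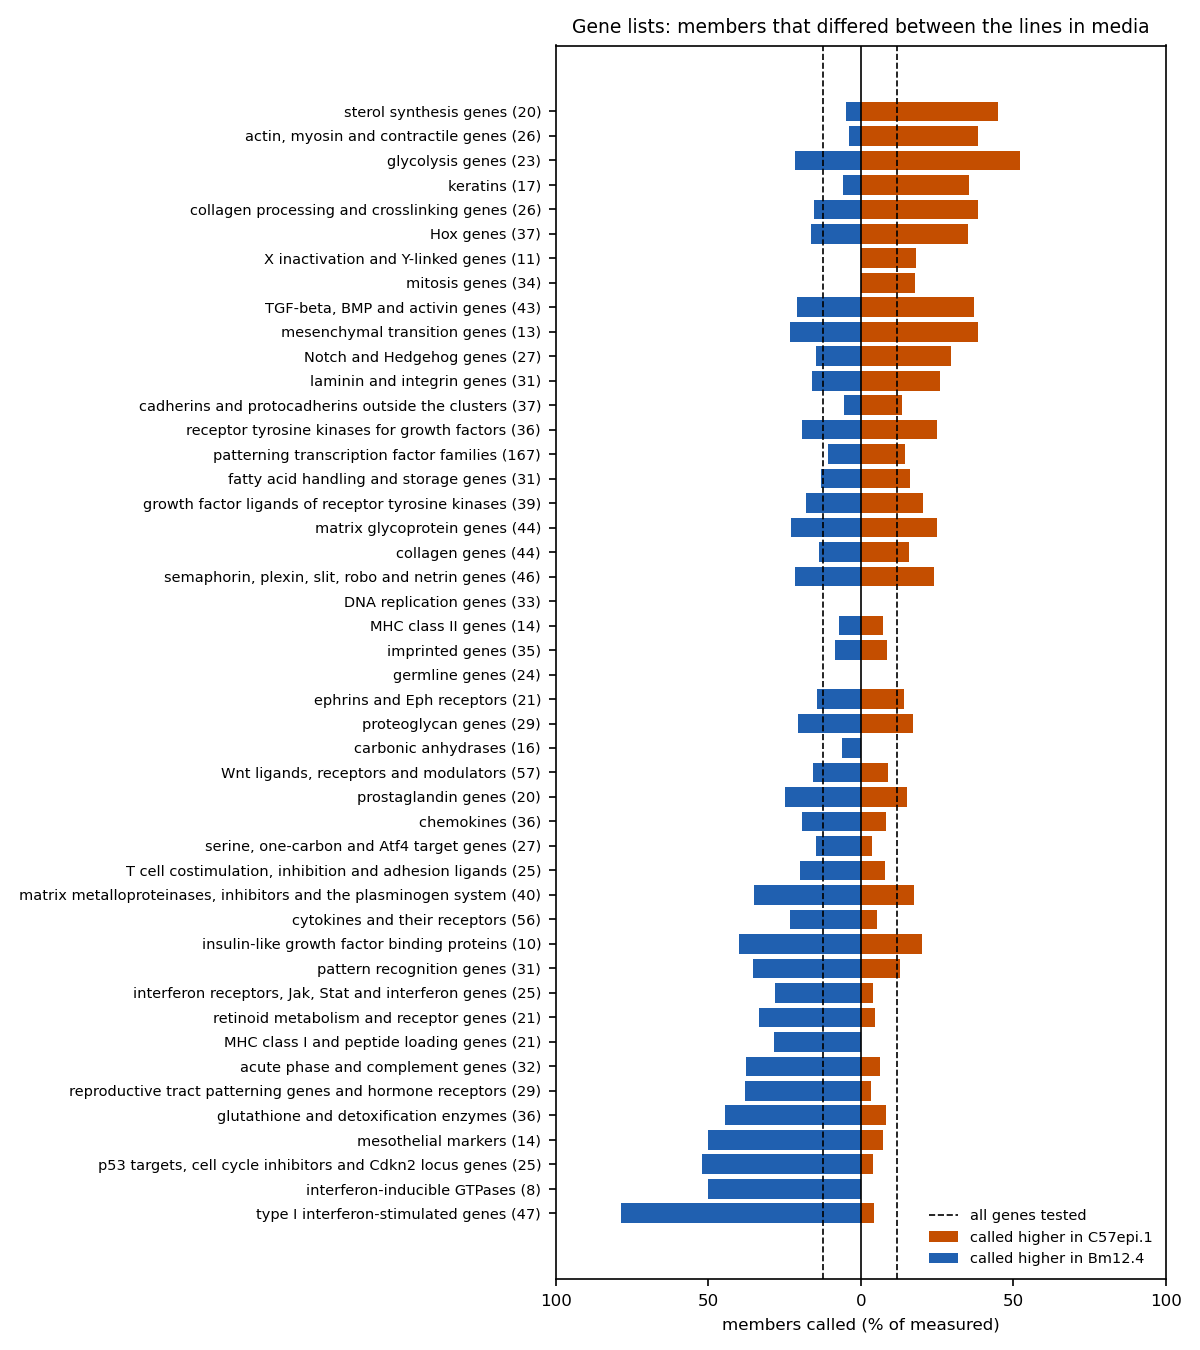
Bars give, for each gene list, the percent of measured members called higher in C57epi.1 (right) and in Bm12.4 (left), with the number measured in parentheses and dashed lines at 12% and 12.5%, the shares over all genes. Type I interferon-stimulated genes reach furthest to Bm12.4, with 37 of 47, and 12 of 23 glycolysis genes were called higher in C57epi.1.

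Of 25 genes of the p53 response and cell cycle inhibitors, 13 were higher in Bm12.4, 1, Perp, in C57epi.1 and 11 were not called. Trp53, which encodes p53, Cdkn1a, Bax and Gdf15 were not among the 25 analysed. Leaving out any 1 media array left 13 or 14 higher in Bm12.4. The median difference was −0.61. Cdkn2b, which inhibits the kinases that open the cell cycle, read 7.44, 7.88, 8.39 and 8.20 in Bm12.4 and 5.34, 6.01, 5.42 and 5.81 in C57epi.1 (difference −2.33, SE 0.218, adjusted p = 1.56e-08). Btg2 (−2.02), Pmaip1 (−1.95) and Eda2r (−1.72), known targets of p53, and Mdm2 (−0.93), its inhibitor, went the same way. The list held Cdkn2a (−0.83), Cdkn2b and Mtap (−1.74), neighbours in 1 stretch described below. Cdkn2a, whose arrays overlapped, lost its call without replicate 1 of C57epi.1 (adjusted p = 0.0646) or replicate 2 of C57epi.1 (adjusted p = 0.0579).

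Mitosis genes differed mainly in replicates 3-4. Of 34, 6 were higher in C57epi.1 and none in Bm12.4, but in replicates 3-4 all 34 were higher in C57epi.1 (median 1.69), and in replicates 1-2 only 2 were called (median 0.26). Over all genes, 31% were called in replicates 3-4 and 20.9% in replicates 1-2, in either direction. The mean of the list was 9.84, 9.76, 8.82 and 8.92 in C57epi.1 and 9.55, 9.53, 7.08 and 7.34 in Bm12.4, so replicates 3 and 4 were lower in both lines and lowest in Bm12.4. The count of 6 became 22 and 21 without replicate 1 or 2 of Bm12.4, 1 without replicate 3 or 4 of Bm12.4 and 2 without replicate 1 or 2 of C57epi.1. With the replicate number as a block it was 10, and with that block on the 8 media arrays alone 22. On those 8 arrays without the block it was 1. Cdc20, an activator of the anaphase ligase, read 10.52, 10.45, 9.74 and 10.01 in C57epi.1 and 9.55, 9.79, 7.15 and 7.52 in Bm12.4 (difference 1.68, adjusted p = 0.00523). Mki67 read 10.14, 10.12, 9.55 and 9.48 against 9.70, 9.51, 7.33 and 7.80, with an adjusted p of 0.0353. That call was lost without replicate 3 (0.174) or 4 (0.135) of Bm12.4 and without replicate 1 (0.0927) or 2 (0.0834) of C57epi.1. Of 33 DNA replication genes limma called none over the 4 replicates, with 2 at an unadjusted p under 0.05. Without replicate 1 or 2 of Bm12.4 it called 4 and 5. Within replicates 3-4 it called 16 higher in C57epi.1, beside 31% of all genes called there in either direction. With the replicate block 2 were higher in C57epi.1, and with that block on the 8 media arrays alone 10 were higher and 1 lower.

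**Figure D3:**
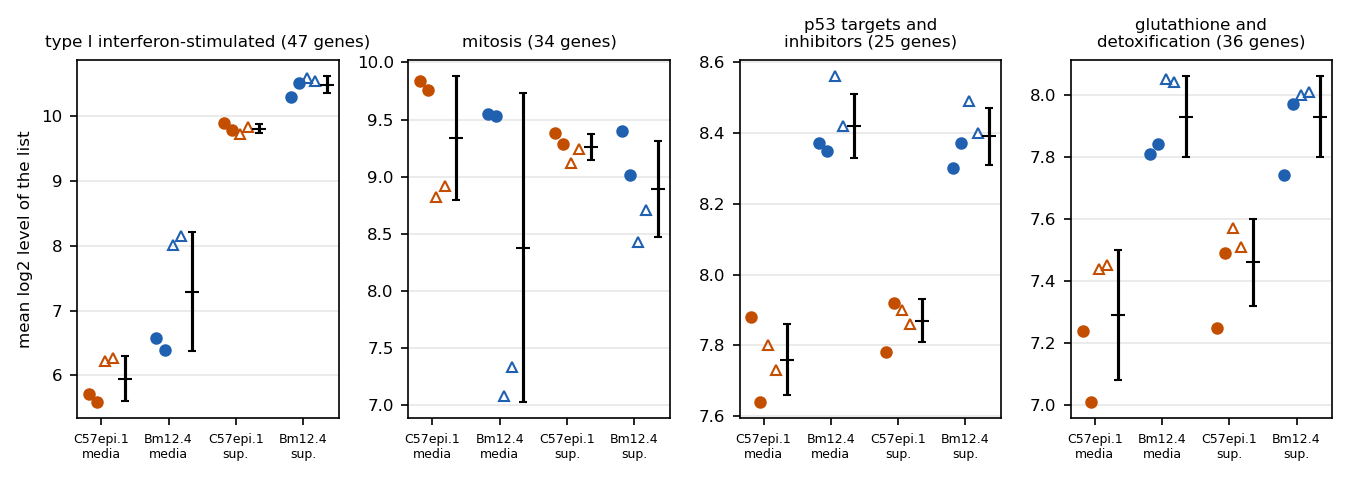
Each panel gives the mean log2 level of a list on every array of the lines, circles for replicates 1-2 and open triangles for replicates 3-4, with the mean and SD of 4 arrays beside them (sup. is inflammatory supernatant). Mitosis genes in Bm12.4 media split into 9.55 and 9.53 against 7.08 and 7.34, whereas the p53 list keeps the lines apart on every media array.

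**Figure D4:**
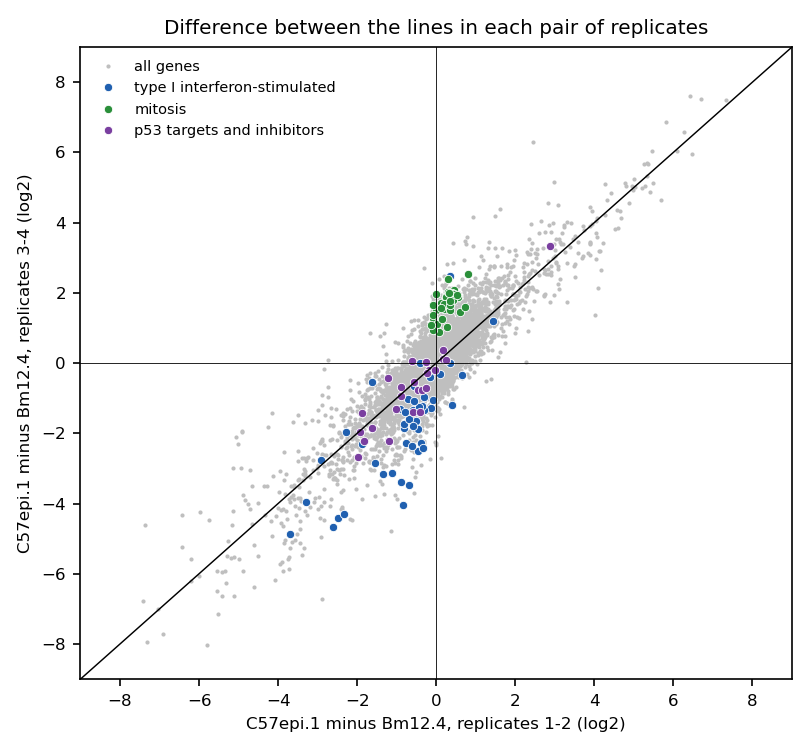
The difference C57epi.1 minus Bm12.4 (log2) in replicates 1-2 is on the x axis and that in replicates 3-4 on the y axis, 1 point per gene, with a line where both are equal. Mitosis genes lie above the line (list medians 0.26 and 1.69) and interferon-stimulated genes below it (−0.60 and −1.66).

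Metabolic genes differed by pathway. Of 36 glutathione and detoxification enzymes, 16 were higher in Bm12.4 and 3 in C57epi.1, with a median of −0.63. Gstm5, a glutathione transferase, read 6.81, 7.09, 8.42 and 7.94 in Bm12.4 and 3.28, 3.24, 3.07 and 3.45 in C57epi.1 (difference −4.30, SE 0.27, adjusted p = 1.56e-11), and the oxidase Cyp1b1 differed by −3.67. Vnn1 and Gsta4, given above, were 2 of the 3 exceptions. Of 20 sterol synthesis genes, 9 were higher in C57epi.1 and 1 in Bm12.4, and with the 8 media arrays alone 3 and 1 were. Fdps read 9.13, 9.35, 8.81 and 8.96 in C57epi.1 and 7.95, 8.45, 7.46 and 7.48 in Bm12.4. Idi1 (1.61) and Msmo1 (0.96) went with it. Of 23 glycolysis genes, 12 were higher in C57epi.1 and 5 in Bm12.4, the highest share called of any list described here after interferon-stimulated genes. The phosphofructokinase Pfkl (1.48) and the transporter Slc2a3 (2.32) were higher in C57epi.1. Pdk1 (−2.90), which diverts pyruvate from mitochondria, and Pfkfb3 (−1.50) were higher in Bm12.4. The list's median was 0.08 in replicates 1-2 and 1.12 in replicates 3-4. Of 31 lipid genes, 5 were higher in C57epi.1 and 4 in Bm12.4. The count of 5 was 8 without replicate 2 of Bm12.4 or replicate 3 of C57epi.1, and 9 with the replicate number as a block. Examples were Lpl (3.65) and Fabp5 (3.15) higher in C57epi.1 and Gpam (−1.81) and Dgat2 (−1.42), which build triglyceride, higher in Bm12.4. Of 27 serine, one-carbon and Atf4 target genes, 4 were higher in Bm12.4 and 1 in C57epi.1 in media. In supernatant 15 were higher in C57epi.1 and 1 in Bm12.4, beside 29.9% of all genes called there in either direction. The count of 4 in media was 2 without replicate 1 of Bm12.4 or replicate 3 of C57epi.1 and 7 without replicate 1 of C57epi.1.

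Xist, the noncoding RNA that silences an X chromosome in female cells, read 8.46, 8.20, 8.93 and 8.46 in C57epi.1 and 3.46, 3.17, 3.28 and 3.65 in Bm12.4. The difference of 5.12 (SE 0.138, adjusted p = 3.2e-18, 34.8-fold) was alike in both pairs of replicates (5.01 and 5.23). The Y-linked genes Eif2s3y, Uty and Kdm5d were between 2.72 and 3.21 in both lines, with no call. Among 35 imprinted genes, 3 were called each way, and without replicate 1 of C57epi.1 5 were higher in that line. Airn, the noncoding RNA that silences Igf2r on the paternal chromosome, read 6.76, 6.34, 6.79 and 6.89 in C57epi.1 and 4.36, 4.35, 3.82 and 4.41 in Bm12.4 (2.46). Igf2r itself went the other way (−1.32, adjusted p = 0.00023). Zim1 (2.74) was higher in C57epi.1. Of 24 germline genes limma called none, with 2 at an unadjusted p under 0.05.

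Neighbouring genes were set in the order of the RefSeq table, and windows of 50 were taken over the 9656 genes with a mean of at least 6 in 1 line. Of these 9656 genes, 1996 were called higher in Bm12.4 and 1981 in C57epi.1, while 4563 lay below 0 and 5084 above. Of 8674 windows, the middle 95% had a median difference between −0.55 and 0.40. The lowest window ran from Abca1 to Ptprd (−1.33), with 39 genes called higher in Bm12.4 and 4 in C57epi.1. The highest ran from Atg4c to Stil (0.96), with 41 called higher in C57epi.1 and 3 in Bm12.4. They lie in 1 run of 133 genes, which turned between the neighbours Cdkn2b and Elavl2, a point chosen after the values were seen. From Abca1 to Cdkn2b, 63 of 72 genes were below 0 and 53 were called higher in Bm12.4, with a median of −1.05. From Elavl2 to Stil, 58 of 61 were above 0 and 49 were called higher in C57epi.1, with a median of 0.81. The medians were −1.14 and 0.86 in replicates 1-2, −0.92 and 0.88 in replicates 3-4 and −0.91 and 0.84 in supernatant.

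Genes of this run are of mixed function. Alad, an enzyme of haem synthesis, was at 8.94 in C57epi.1 and 11.32 in Bm12.4 (difference −2.38), and Abca1, the cholesterol exporter, at 4.25 and 7.23 (−2.98). Pgm1, a phosphoglucomutase, was at 11.37 and 9.39 (1.97), and Leprot at 9.59 and 8.04 (1.54). Jak1 lies in the second stretch and Mtap in the first. The largest differences against the direction of a stretch were Pakap (5.09), Tnc (3.69), Bnc2 (3.55) and Ptprd (2.75) in the first, and Plpp3 (−4.79), Scp2 (−2.71) and Cdkn2c (−0.91) in the second. Measured against macrophages, the first stretch had a median of 0.23 in C57epi.1 and 1.08 in Bm12.4, and the second 0.39 and −0.33, beside 0.16 in each line over all genes in the order. The number of copies of these genes in the lines was not tested. Further windows with low medians ran from Alg12 to Rnd1 (−0.75), from Asic1 to Zfp385a (−0.66) and from Prune2 to Ifit1 (−0.64). The last of these holds Aldh1a1, Vldlr, Jak2 and Fas, and Acta2 goes against it. It also holds Ifit1, Ifit2 and Ifit3, which were counted among the interferon-stimulated genes higher in Bm12.4. Hoxc9, Hoxc10, Hoxc13 and Krt8 go against the window from Asic1 to Zfp385a. Other windows with high medians ran from Akr1a1 to Trit1 (0.53), which holds Cdc20, from Slc30a6 to Gm1976 (0.52) and from Fzd7 to Cnppd1 (0.49).

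**Figure D5:**
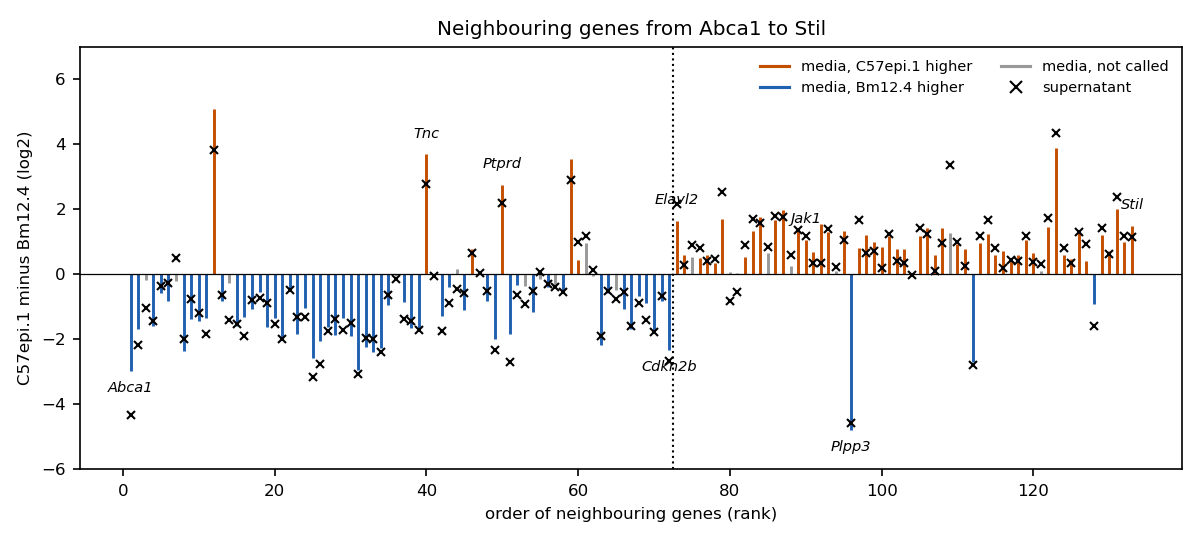
The x axis is the rank of 133 neighbouring genes from Abca1 to Stil and the y axis the difference C57epi.1 minus Bm12.4 (log2), with lines for media and crosses for supernatant. Left of the dotted line, between Cdkn2b and Elavl2, 63 of 72 genes lie below 0, and right of it 58 of 61 lie above.

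The same lines were compared in supernatant, on 8 other arrays. Both comparisons came from 1 fit and share its estimate of the spread. There limma called 5968 genes (29.9%), 2860 higher in C57epi.1 and 3108 in Bm12.4. Of the media calls, 3545 (72.7%) were called the same way, or 59.4% of the supernatant calls, and 39 were called the opposite way. Of the media calls of at least 2-fold, 90.2% were called the same way, and so were all 110 of at least 16-fold. The interferon-stimulated genes had a median of −0.35 there, with 16 higher in Bm12.4 and 4 in C57epi.1. Genes with opposite calls included Hp, the haemoglobin binder haptoglobin (0.87 in media and −1.48 in supernatant), Creld2 (−0.86 and 1.56), Phlda1 (−1.33 and 0.85) and Fam110c (−0.81 and 0.84). The media call was lost when some single arrays were left out for 3 of them. Hp lost it without replicate 3 or 4 of C57epi.1 (adjusted p = 0.0683 and 0.0877). Creld2 lost it without replicate 1 or 2 of Bm12.4 (0.171 and 0.163) or replicate 3 or 4 of C57epi.1 (0.113 and 0.126). Fam110c lost it without replicate 3 or 4 of Bm12.4 (0.149 and 0.105) or replicate 2 or 3 of C57epi.1 (0.0785 and 0.0824). Phlda1 kept its call in each of these.

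Some genes differed between the lines by amounts that changed strongly between the pairs of replicates. Scrg1 read 6.72, 5.77, 10.31 and 9.84 in Bm12.4 and 3.32, 3.41, 3.43 and 3.29 in C57epi.1. Aqp1, a water channel, read 6.65, 5.60, 9.97 and 9.69 in Bm12.4 and 4.78, 5.19, 4.86 and 5.26 in C57epi.1. Cth, the cystathionine lyase, read 9.46, 8.39, 5.84 and 5.79 in Bm12.4 and 3.93, 4.09, 3.95 and 3.81 in C57epi.1. In these genes the levels of Bm12.4 differed between the pairs, and those of C57epi.1 stayed low. Ahsg read 4.82, 4.40, 7.81 and 8.29 in C57epi.1 and 3.96, 3.43, 3.82 and 3.94 in Bm12.4, the reverse case. The others named were Higd1a, Aldh3a1, Ifit3 and Adgrf1. Ifit3 (−2.45 over 4 replicates) lost its call without replicate 3 (adjusted p = 0.0609) or 4 (0.0612) of Bm12.4. Of 24 genes called in both pairs in opposite directions, Cbr2, Fmo1 and Fmo2, enzymes of oxidation and reduction, had differences of −1.27, −1.31 and −1.67 in replicates 1-2 and 1.11, 0.86 and 0.86 in replicates 3-4.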

How the data were processed

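Total RNA from 24 arrays was used, 4 per group. The arrays of the comparison were 4 of C57epi.1 and 4 of Bm12.4 in media. As deposited, values are log2 levels, and per the submitters' processing notes GCOS, Partek 6.2 and RMA were used, which corrects background, aligns array distributions and summarises probes. The genome build used upstream is not given in the sources used here. For arrays, their number limits the precision.

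Of 28853 probe sets, 21789 had 1 gene symbol, 1621 several and 5443 none, and the first kind was used. For 999 symbols with several probe sets the one with the highest mean was taken, which left 19938 genes, 19919 of them in the RefSeq table of GRCm38.p6. Some list members were not analysed here.

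A mean per group was fitted over all 24 arrays with limma 3.58.1 (R 4.3.3; lmFit, eBayes with defaults; 18 residual and 3.62 prior degrees of freedom). Two-sided p-values received the Benjamini-Hochberg adjustment over 19938 genes, and a gene was called under 0.05. Differences within replicates 1-2 and 3-4 came from a fit with a mean per group and pair (12 residual degrees of freedom). The script was tested on simulated data. Named genes were the 12 largest called differences each way without overlap and called within both pairs, up to 4 called members of each list, the largest changes between pairs, and genes called in opposite directions, with a set of markers always named; any other gene named was chosen after its values were seen. The members, lists and rule were chosen with earlier results of these data known. Lists were described by counts and medians, without a test. Alternatives were the filter on low levels, normalization, weights, blocks, a minimum fold, the choice of probe set, the 8 arrays alone and leaving out each array.

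Replicate numbers come from the labels. Deviations from group means of same-numbered arrays of the lines correlated at 0.512 to 0.625, and a fit with the number as a block was therefore run. Arrays of different number within a pair of replicates correlated as much (0.562 to 0.635), so these values show the pairs 1-2 and 3-4 and do not show a match by number, and those of opposite pairs at −0.647 to −0.528.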

Additional observations from a re-analysis of the deposited data

Results flagged for a closer look

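Among 424 pairs of a named gene and a line, 11 had 1 array apart from the other 3, and chance gives about 1 in 20. In C57epi.1, these were Fgf7 in replicate 4 (10.14, others 10.38 to 10.41), Icam1 in replicate 4 (7.95, others 7.68 to 7.72) and Pdk1 in replicate 4 (4.67, others 4.33 to 4.35). In replicate 2 of that line they were Lama4 (3.82, others 3.61 to 3.62), Epha4 (9.19, others 8.27 to 8.33), Rxrg (3.82, others 3.44 to 3.46) and Krt19 (10.69, others 11.47 to 11.56). In Bm12.4, they were P3h2 in replicate 1 (3.85, others 4.15 to 4.21), Eln in replicate 2 (8.66, others 9.20 to 9.29), Airn in replicate 3 (3.82, others 4.35 to 4.41) and Fmo1 in replicate 1 (6.09, others 7.02 to 7.17).

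The difference between the lines changed between replicates 1-2 and 3-4 for 949 genes by limma's test of that change.

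Probe sets without a usable gene name also differed between the lines in media. Of 5443 with no symbol, 598 (11%) were called, and of 1621 with several symbols, 322 (19.9%) were.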

How the results depend on the processing

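The count of 4873 called genes was 3007 with the 8 media arrays alone and 1270 when a difference had to exceed 1.5-fold; those higher in C57epi.1 numbered 1468 and 551, and those higher in Bm12.4 1539 and 719. With array weights, 2008 genes were called the same way in both pairs of replicates, 188 changed between the pairs and 2353 were called within replicates 1-2. Leaving out each array in turn gave 4299 to 5042 called genes. With the replicate number as a block the count was 5265, or 4835 with the 8 media arrays alone (added after seeing the data). Among lists described, the block on all arrays moved genes of mitosis (6 to 10) and lipids (5 to 9) higher in C57epi.1 by over 1.5 times, and otherwise counts of 0 or 1, by 1 or 2 genes. It ended no call of a named gene. On the 8 media arrays alone the block also moved, among counts of 3 or more, mitosis (22), lipids (9), cadherins (5 to 3), ephrins (3 to 5) and detoxification enzymes (3 to 5) higher in C57epi.1, and chemokines higher in Bm12.4 (7 to 11). From counts of 0 or 1 it gave 10 for DNA replication, 6 for Atf4 targets and 3 for MHC class II genes higher in C57epi.1. Of 201 named genes called in media, 154 kept direction and call in all 22 settings and 47 did not. Differences that reversed were Psmb10 (0.04 in replicates 1-2), Krt19 (0.08 in replicates 3-4), Pgr (0.07 in replicates 1-2) and Cbr2, Fmo1 and Fmo2 (1.11, 0.86 and 0.86 in replicates 3-4). The cause was not tested. In 100 of the 110 genes of at least 16-fold 1 line was under the median of all values, which limits the size measured.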

Other observations

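Some genes that were low in 1 line in media were still low in that line under supernatant, which holds interferon-gamma. They were looked up after the media values were seen. Parp12 in C57epi.1 was at 3.89, 3.99, 3.79 and 3.76 in supernatant, and in Bm12.4 at 11.21, 11.21, 11.25 and 11.31 (difference −7.39, adjusted p = 8.85e-18). Psmb9, an inducible subunit of the proteasome, was at 6.18, 5.81, 6.18 and 6.14 in C57epi.1 and at 10.90, 11.30, 11.39 and 11.34 in Bm12.4 (−5.16), while in media it was at 5.73 and 6.79. Psmb8, another such subunit, went the other way in supernatant, at 8.09, 8.09, 8.36 and 8.24 in C57epi.1 and at 5.86, 6.11, 5.79 and 5.81 in Bm12.4 (2.30, adjusted p = 3.31e-13), and it was not called in media (0.20, adjusted p = 0.263). Tap2, the second chain of the peptide transporter, differed by −0.32 in supernatant (adjusted p = 0.299), while Tap1 differed by −4.51. Aim2 in Bm12.4 was at 3.80, 3.94, 4.27 and 4.16 in supernatant, and Il13ra1 in C57epi.1 at 3.51, 3.69, 3.65 and 4.12.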
